A study of Mus musculus with 2 samples.

Results

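The genes described here handle iron in cells of the oligodendrocyte lineage of the mouse optic nerve, before and after optic nerve crush (ONC). They are the ferritin subunits Fth1 and Ftl1, the iron carrier transferrin (Trf), its receptor Tfrc, the iron exporter Slc40a1 (ferroportin), the importer Slc11a2, the ferric reductase Steap3, the heme oxygenase Hmox1, the regulator Ireb2 and the ferroxidase Cp. These 10 genes were picked by name, with their values in these libraries already known, out of 31053 gene names in the deposited matrices. Single cells had been sequenced from 1 library of 5 uninjured and 1 library of 5 injured optic nerves, pooled within each library. Both came from wildtype mice of strain 129S1/SvlmJ of both sexes, 10 weeks old at collection by the study's methods, although the labels give an age of 56 days for both libraries. The injured mice had received the crush at 8 weeks of age, 2 weeks before collection, and the uninjured library is assigned by its title, because the treatment label of both libraries names the crush. Each barcode carries the type that the authors gave it, which is oligodendrocyte precursor cell (OPC), newly formed oligodendrocyte (NFO) or oligodendrocyte.

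Iron enters most cells bound to transferrin through Tfrc, is reduced by Steap3 and leaves the endosome through Slc11a2. The surplus is stored inside ferritin shells built from heavy chains (Fth1), which oxidise iron, and light chains (Ftl1), which help it to mineralise, and it can leave through Slc40a1 with the help of the ferroxidase Cp. Oligodendrocytes are known as the most iron-rich cells of the brain, they make transferrin themselves, and they use iron in the enzymes that build myelin lipids. Translation of ferritin and stability of the Tfrc mRNA are set in many cells by iron regulatory proteins, of which Ireb2 encodes one, which bind hairpins named iron-responsive elements in the untranslated regions (UTRs).

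The hairpins are shown because they are the sequence feature that ferritin, the exporter and the receptor share. The genes were not picked by it, but such elements were already known from ferritin and Tfrc mRNAs. Matches there were thus foreseen, and the shares over coding genes below are description only. A search for a CAGTGN loop (N is any base) after a C bulge, with 5 paired bases on each side of the loop, found 7 such hairpins in 4 of the 10 genes, in the GENCODE vM21 transcripts of GRCm38 (mm10), on the sense strand. Fth1, Ftl1 and Slc40a1 each held 1 in the 5′ UTR, a feature of 31 of 21877 coding genes (0.142%), and Tfrc held 4 in the 3′ UTR, where 129 coding genes (0.59%) had at least 1. The other 6 genes had no match to these letters, which does not show that they lack an element of another form. The 30 bases around each loop follow, 5′ to 3′ on the gene's own strand, with the loop in capitals.
Fth1, chr19:9982731-9982760, plus strand, 5′ UTR: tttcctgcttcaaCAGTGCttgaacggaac
Ftl1, chr7:45459779-45459808, minus strand, 5′ UTR: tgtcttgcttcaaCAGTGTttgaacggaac
Slc40a1, chr1:45925465-45925494, minus strand, 5′ UTR: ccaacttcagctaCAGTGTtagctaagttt
Tfrc, chr16:32631218-32631247, plus strand, 3′ UTR: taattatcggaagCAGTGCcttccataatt
Tfrc, chr16:32631597-32631626, plus strand, 3′ UTR: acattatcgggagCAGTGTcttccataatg
Tfrc, chr16:32631662-32631691, plus strand, 3′ UTR: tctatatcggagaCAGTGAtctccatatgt
Tfrc, chr16:32631709-32631738, plus strand, 3′ UTR: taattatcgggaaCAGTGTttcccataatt
These libraries count mRNA, so they do not measure translation, and no value here bears on binding to the hairpins.

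The uninjured library held 959 barcodes with 4414834 unique molecular identifiers (UMIs, 1 per captured mRNA molecule) and the injured library 410 barcodes with 2771797, and they shared 0 barcodes. Median depth was 2782 UMIs per barcode without injury and 1304.5 after it. Barcodes with less than 0.5% of their UMIs from the nuclear transcript Malat1 made up 48 of the 857 oligodendrocytes without injury and 133 of the 293 after it, so oligodendrocytes are also given split at that value, as Malat1-rich and Malat1-poor. NFOs were not split. Their median Malat1 share was 0.154% without injury and 0.112% after it, against 5.27% and 0.692% in all oligodendrocytes. Ratios of oligodendrocytes over NFOs therefore compare barcodes of unlike Malat1 share, and its part in them was not tested. Levels are the UMIs of a gene in a class per 1000000 UMIs of that class (CPM), summed over its barcodes, with an exact Poisson 95% interval, or the share of barcodes with at least 1 UMI. Each type had the highest sum of its own markers, but NFOs were less distinct. The 5 OPC markers summed to 12672 CPM in uninjured OPCs, 3878 in uninjured NFOs and 28.0 in uninjured oligodendrocytes. The 6 NFO markers summed to 4940 CPM in uninjured and 7495 in injured NFOs, against 1145 and 1051 in oligodendrocytes. The 8 oligodendrocyte markers were higher than these within NFOs, at 8180 and 12272 CPM, against 68745 and 58240 in oligodendrocytes. RNAs of macrophages and microglia (12 markers, summed) took 26.8 CPM in uninjured oligodendrocytes with 11 of the 12 detected, and 337.9 in injured ones with all 12 detected. Each condition is 1 library, so there is no replicate check and no test, and every interval covers counting error only. A fold is named as a change of at least 2-fold only for genes with at least 50 UMIs in both libraries together.

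Fth1, the heavy chain of ferritin, was highest in oligodendrocytes in both libraries. In the uninjured library it stood at 3560.4 CPM (3283 to 3855) in OPCs, 4643 (4217 to 5099) in NFOs and 21729 (21587 to 21871) in oligodendrocytes. It was 4.68-fold higher (4.26 to 5.15) in oligodendrocytes than in NFOs, and every uninjured oligodendrocyte barcode held at least 1 Fth1 UMI. Among single uninjured oligodendrocytes the middle part of barcodes, between the quartiles, ran from 10880.3 to 25491 CPM around a median of 17804. In the injured library Fth1 stood at 1097 CPM (916 to 1303) in the 17 OPCs, 2689 (2520.02 to 2866) in NFOs and 26084 (25876 to 26294) in oligodendrocytes. The distance between NFOs and oligodendrocytes was 9.70-fold (9.10 to 10.4) after injury.

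**Figure D1:**
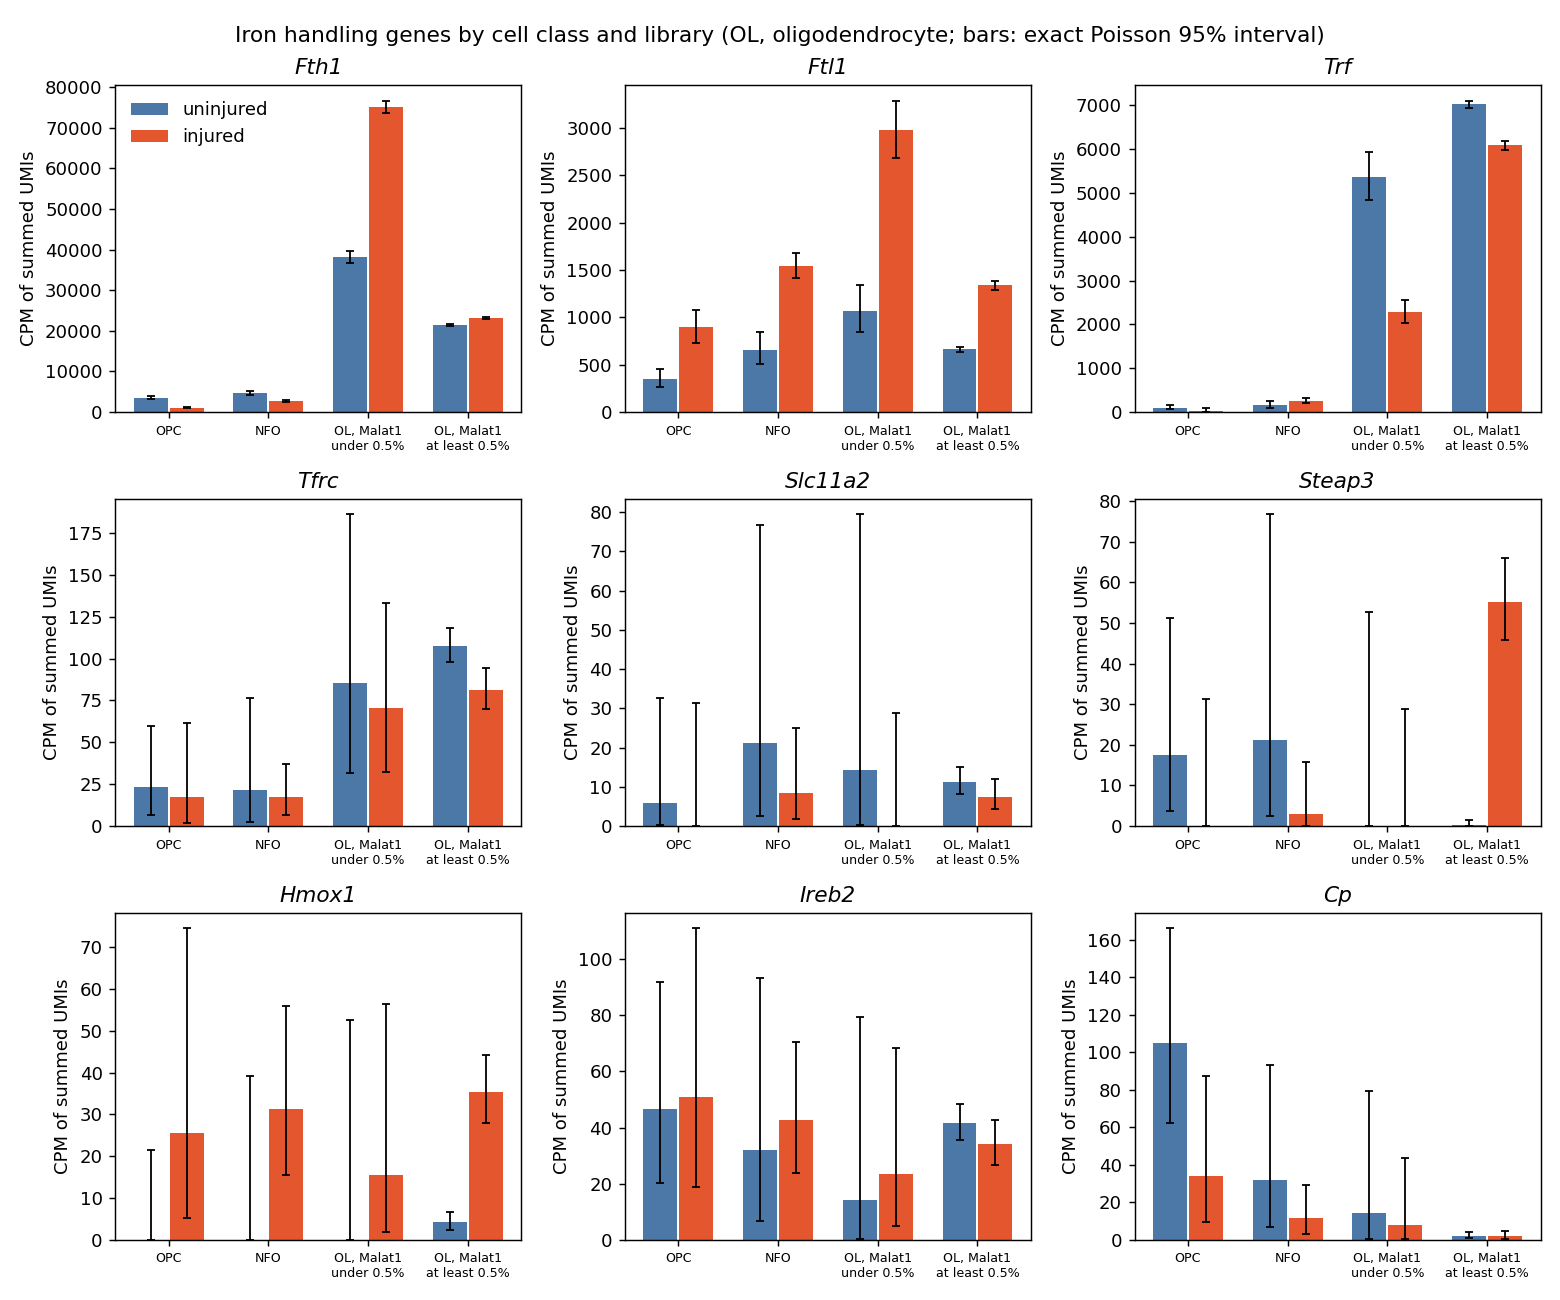
Level of 9 iron handling genes (y axis, CPM) in OPCs, NFOs and oligodendrocytes with Malat1 under or at least 0.5% of UMIs (x axis), in the uninjured (blue) and injured (red) library. Bars are sums over all barcodes of a class, error bars are exact Poisson 95% intervals, and Slc40a1 is left out because it had 0 UMIs. Fth1 was highest in injured Malat1-poor oligodendrocytes, Trf was at most 259 CPM outside oligodendrocytes, and Steap3 stood out in injured Malat1-rich oligodendrocytes alone among the classes with more than 3 UMIs.

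The injured library had less Fth1 than the uninjured one in NFOs and more in oligodendrocytes. The ratio of injured over uninjured was 0.579 (0.517 to 0.650) in NFOs and 1.20 (1.19 to 1.21) in oligodendrocytes. Neither passed 2-fold. In NFO barcodes without any UMI of the macrophage and microglia markers the ratio was 0.427 (0.328 to 0.549), from 72 and 421 UMIs, which is past 2-fold. In oligodendrocytes the ratio depended on which barcodes were summed. It was 1.08 (1.07 to 1.09) in Malat1-rich oligodendrocytes and 1.97 (1.89 to 2.06) in Malat1-poor ones.

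The highest Fth1 shares belonged to injured oligodendrocytes that were poor in Malat1. Fth1 took 38146 CPM in the uninjured and 75171 CPM in the injured Malat1-poor oligodendrocytes, against 21447 and 23191 CPM in the Malat1-rich ones. Within the injured library the Malat1-poor oligodendrocytes had 3.24-fold more Fth1 (3.17 to 3.31) than the Malat1-rich ones, whereas in the uninjured library the same ratio was 1.78 (1.71 to 1.85). Of the 7 iron genes compared within the injured library, 2 (Fth1 and Ftl1) were at least 2-fold higher in the Malat1-poor oligodendrocytes, against 3.38% of all genes, and 3 (Trf, Steap3 and Hmox1) were lower, against 47.5%. Hmox1 had only 2 UMIs in the Malat1-poor barcodes, and the interval of its ratio, 0.441 (0.0524 to 1.65), included 1. Of the 5 compared within the uninjured library 0 were higher, against 7.67%, and 1 (Ireb2, with 1 UMI in Malat1-poor barcodes and a ratio of 0.342, 0.00861 to 1.93) was lower, against 34.6%. All 133 injured Malat1-poor oligodendrocytes held Fth1, with a median of 65543 CPM, quartiles of 35674.5 and 120141 and a highest barcode of 287599. In finer steps of Malat1, Fth1 in injured oligodendrocytes was 61048 CPM under 0.1% Malat1, 90739 from 0.1 to 0.5%, 30392 from 0.5 to 2%, 24312 from 2 to 5% and 9744 at 5% or more. The same steps ran from 41487 to 19225 CPM in the uninjured library, a narrower span.

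**Figure D2:**
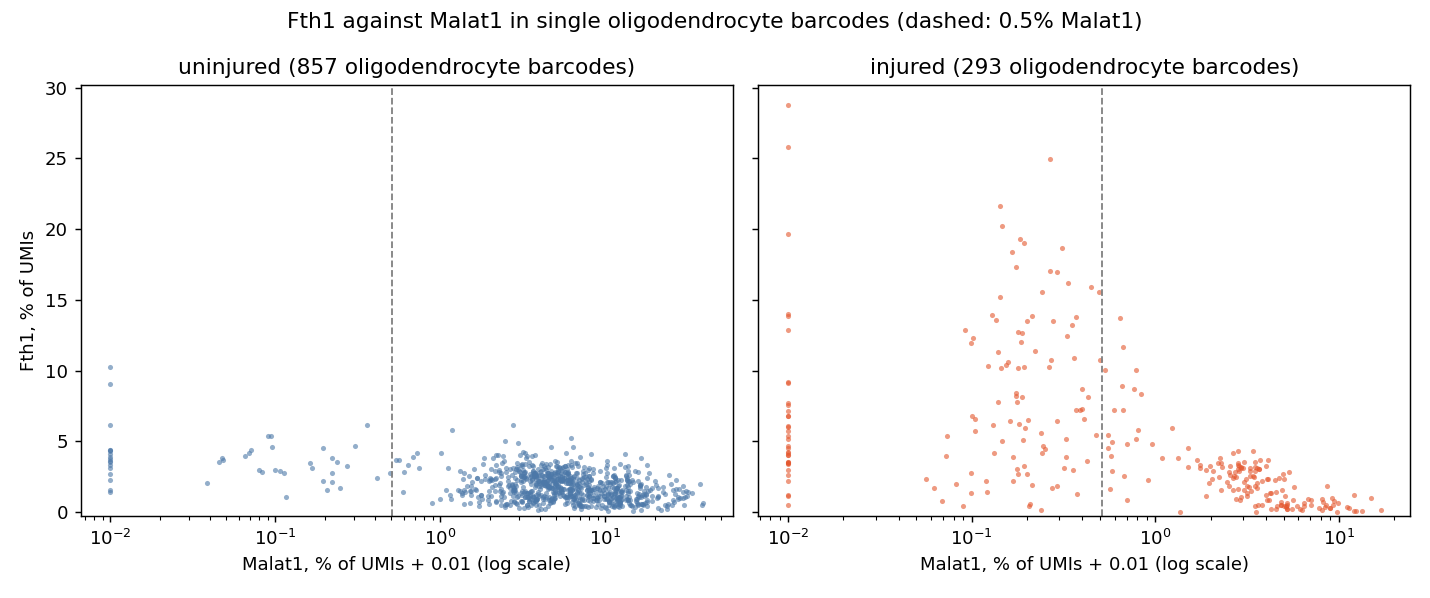
Fth1 (y axis, % of a barcode's UMIs) against Malat1 (x axis, % of UMIs plus 0.01, log scale) in 857 uninjured (left) and 293 injured (right) oligodendrocyte barcodes, 1 point per barcode, with the 0.5% Malat1 limit dashed. Injured barcodes left of the limit reach far above the uninjured ones, with highest barcodes of 287599 against 102543 CPM (10000 CPM are 1% of UMIs).

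Markers of macrophages and microglia were also higher in these barcodes. Their 12 genes summed to 99.8 CPM in uninjured and 2567 CPM in injured Malat1-poor oligodendrocytes, and 3 and 12 of the 12 were detected. In the 24 injured Malat1-poor barcodes without any UMI of these markers, Fth1 stood at 80759 CPM (77387 to 84241), and in the 109 with such a UMI at 73700 CPM (72038 to 75389). The 24 barcodes had a median of 759 UMIs, so the lack of a marker UMI does not show that they held no such RNA. Its part in the Fth1 values was not tested. Depth differed as well: the injured Malat1-poor oligodendrocytes had a median of 774 UMIs and the injured Malat1-rich ones a median of 9803.5.

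The direction of the Fth1 comparison differed with depth. Among oligodendrocyte barcodes of under 1000 UMIs, Fth1 was at 18969 CPM in 157 uninjured and 76529 CPM in 133 injured barcodes, a ratio of 4.03 (3.84 to 4.24). From 1000 to under 3000 UMIs the levels were 15953 and 40036 CPM, a ratio of 2.51 (2.41 to 2.61). From 3000 to under 8000 UMIs the order turned, with 18056 CPM in 233 uninjured and 12008 CPM in 30 injured barcodes, a ratio of 0.665 (0.631 to 0.7002). At 8000 UMIs or more the libraries were close, with 24701 and 24142 CPM and a ratio of 0.977 (0.966 to 0.989). The median Malat1 share was 2.86% and 0.228% in the shallowest step and 4.50% and 3.07% in the deepest, so depth, Malat1 and injury cannot be told apart in the shallow barcodes. Under 1000 UMIs 2 of the 3 iron genes compared (Fth1 and Ftl1) were at least 2-fold higher after injury and 1 (Trf) was lower, where 32.2% and 37% of all genes compared were. From 1000 to under 3000 UMIs the same 2 of 4 were higher and 2 (Trf and Tfrc) lower, against 8.89% and 24.3% of all. Tfrc had only 3 UMIs in these injured barcodes, and the interval of its ratio, 0.358 (0.0715 to 1.10), included 1. From 3000 to under 8000 UMIs 0 of 5 were higher or lower, against 8.69% and 14.7%. At 8000 UMIs or more 2 of 7 (Steap3 and Hmox1) were higher and 0 lower, against 7.78% and 3.13%.

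**Figure D3:**
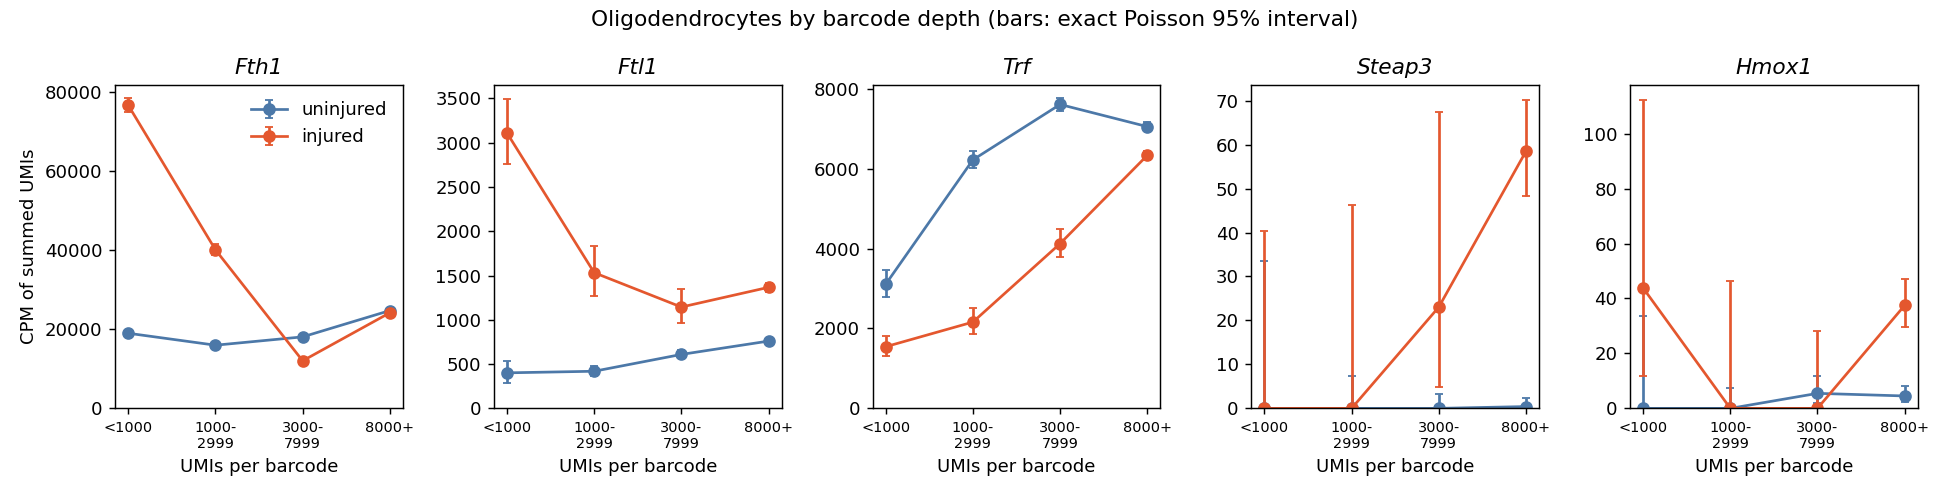
Level of Fth1, Ftl1, Trf, Steap3 and Hmox1 (y axes, CPM) in oligodendrocytes by UMIs per barcode (x axis, 4 steps), in the uninjured (blue) and injured (red) library, with exact Poisson 95% intervals. The Fth1 lines cross between the second and the third step, Ftl1 is higher in the injured library and Trf lower in every step, and Steap3 reaches 58.5 in the deepest injured barcodes against 0.410 in the uninjured ones.

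Ftl1, the light chain of ferritin, was higher in the injured library in each type. It stood at 350.2 CPM (267 to 451) in uninjured and 893 CPM (730.3 to 1081) in injured OPCs. The macrophage and microglia markers summed to 93.4 and 374 CPM in these OPCs, and 16 of the 17 injured ones held such a UMI. Their part in the OPC values was not tested. In NFOs it stood at 659 CPM (505 to 844) and 1543 CPM (1416 to 1679), and in oligodendrocytes at 669 CPM (644 to 694) and 1429 CPM (1381 to 1479). Unlike Fth1, Ftl1 had a similar level in NFOs and oligodendrocytes, with a ratio of oligodendrocytes over NFOs of 1.02 (0.790 to 1.33) without injury and 0.926 (0.845 to 1.02) after it.

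The ratio of injured over uninjured for Ftl1 was 2.34 (1.80 to 3.10) in NFOs and 2.14 (2.03 to 2.25) in oligodendrocytes. In NFOs 3 of the 10 genes had enough UMIs to be compared, and Ftl1 was the 1 that was at least 2-fold higher, among 1695 genes of which 13.3% were. No gene of the 3 was at least 2-fold lower, against 4.01% of all. In oligodendrocytes 8 genes could be compared and 3 (Ftl1, Steap3 and Hmox1) were at least 2-fold higher, among 8591 genes of which 5.98% were, and none of the 8 was at least 2-fold lower, against 4.06% of all. The genes had been chosen with these ratios known, so the counts only describe them. The median ratio over the 8 genes was 1.02, and over all 8591 genes it was 1.03.

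**Figure D4:**
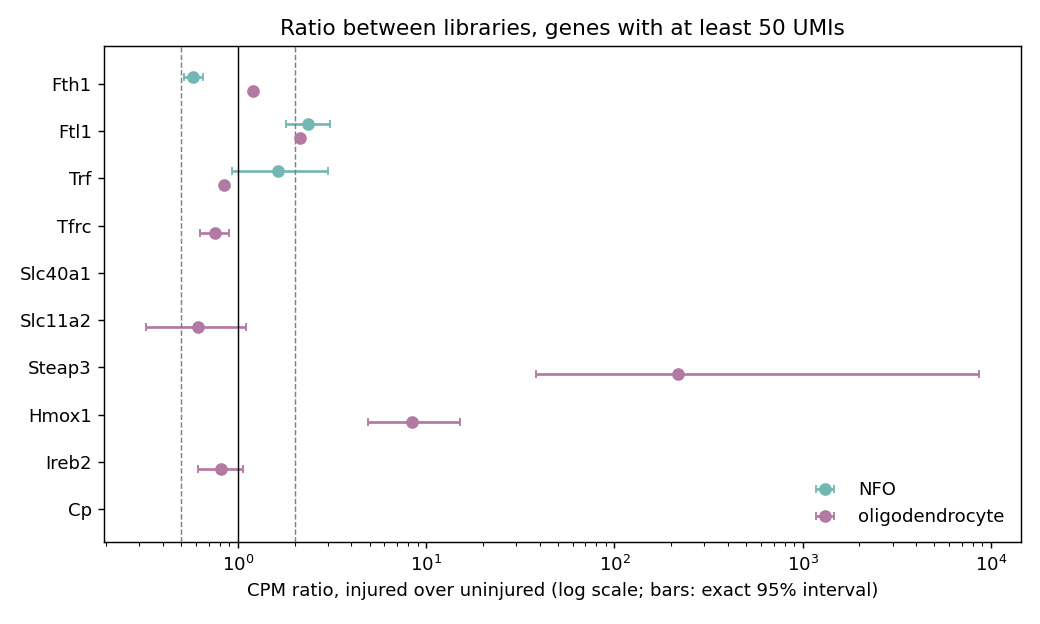
Ratio of the level in the injured over the uninjured library (x axis, log scale) for the genes with at least 50 UMIs, in NFOs (teal) and oligodendrocytes (purple), with exact 95% intervals that cover counting error only and 2-fold limits dashed. Ftl1 lies past 2-fold in both types, Steap3 (216) and Hmox1 (8.38) in oligodendrocytes, and Fth1 lies below 1 in NFOs and above 1 in oligodendrocytes.

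Ftl1 kept its order at each depth in oligodendrocytes. Its ratio was 7.75 (5.63 to 10.9) under 1000 UMIs, 3.66 (2.90 to 4.59) from 1000 to under 3000, 1.88 (1.56 to 2.25) from 3000 to under 8000 and 1.80 (1.70 to 1.91) at 8000 or more. When each barcode was thinned to 500 UMIs, 23.3% of 838 oligodendrocytes held Ftl1 without injury and 52.2% of 293 after it, against 65.2% and 86.0% unthinned. After the same thinning 23.8% of 42 NFOs held it without injury and 50% of 100 after it. Macrophage and microglia markers were higher too in injured NFOs, at 844 CPM against 42.5. In NFO barcodes without any such UMI the ratio was 1.65 (1.07 to 2.52), from 59 and 39 UMIs, and no longer at least 2-fold, whereas in oligodendrocytes it was 2.44 (2.20 to 2.70). A retrogene, Ftl1-ps1, which may share reads with Ftl1, held 27 UMIs in uninjured and 31 in injured oligodendrocytes.

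The balance of the ferritin chains differed by type and library. UMIs of Fth1 exceeded those of Ftl1 by 32.5 to 1 (31.3 to 33.7) in uninjured and 18.3 to 1 (17.6 to 18.9) in injured oligodendrocytes. In NFOs the same ratio was 7.05 (5.39 to 9.35) without injury and 1.74 (1.57 to 1.94) after it, and in OPCs 10.2 (7.79 to 13.5) and 1.23 (0.942 to 1.61). The injured library had the lower ratio in each type. Since the UMIs were counted from mRNA ends, the ratio compares classes and is not a measure of the chains in the protein.

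Trf, the secreted iron carrier and one of the markers that were used here to recognise oligodendrocytes, was highest in that type. It stood at 6994 CPM (6914 to 7075) in uninjured and 5873 CPM (5774 to 5973) in injured oligodendrocytes. In NFOs it stood at 159 CPM (89.2 to 263) and 259 CPM (208 to 318), from 15 and 91 UMIs, and in OPCs at 105 and 34.01 CPM, from 18 and 4 UMIs. Before injury 94.2% of oligodendrocytes and 24.1% of OPCs held a Trf UMI, and after it 76.1% and 23.5% did, while the median OPC had 2290 and then 4120 UMIs. The ratio of oligodendrocytes over NFOs was 43.9 (26.6 to 78.4) in the uninjured and 22.7 (18.5 to 28.2) in the injured library.

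Trf was lower in injured oligodendrocytes at each depth. The ratio of injured over uninjured was 0.840 (0.823 to 0.857) over all oligodendrocytes and 0.867 in the Malat1-rich ones. It was 0.497 (0.405 to 0.606) under 1000 UMIs, 0.347 (0.296 to 0.405) from 1000 to under 3000, 0.542 (0.496 to 0.592) from 3000 to under 8000 and 0.898 (0.877 to 0.919) at 8000 UMIs or more. By finer steps of Malat1 the order was not uniform. From 0.5 to 2% Malat1, Trf was higher after injury, at 7074 CPM (6676 to 7490) against 5543 (5165 to 5942). In the other steps it was lower. In Malat1-poor oligodendrocytes Trf was at 5362 CPM in the uninjured and 2279 CPM in the injured library, a ratio of 0.425 (0.363 to 0.496). Fth1 thus stood higher and Trf lower in the sums over injured Malat1-poor oligodendrocytes. Their relation within single barcodes was not tested. UMIs of Fth1 outnumbered those of Trf by 7.11 to 1 (6.38 to 7.95) in uninjured and 33.0 to 1 (29.4 to 37.2) in injured Malat1-poor oligodendrocytes, against 3.05 and 3.81 to 1 in Malat1-rich ones.

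In Malat1-poor oligodendrocytes 3 genes could be compared, and Ftl1 was at least 2-fold higher (2.78, 2.165 to 3.61) and Trf at least 2-fold lower after injury. Of the 510 genes compared there, 12.2% were higher and 15.9% were lower. In Malat1-rich oligodendrocytes 8 could be compared, 3 were at least 2-fold higher (Ftl1 at 2.02, Steap3 and Hmox1) against 6.19% of 8551 genes, and 0 were lower against 3.84%.

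Tfrc, the transferrin receptor, was mostly in oligodendrocytes too. It stood at 107 CPM (97.5 to 118) in uninjured and 80.8 CPM (69.6 to 93.3) in injured oligodendrocytes, from 445 and 186 UMIs, with a ratio of 0.753 (0.631 to 0.896). NFOs held 2 and 6 Tfrc UMIs and OPCs 4 and 2. Over NFOs, Tfrc was higher in oligodendrocytes by a ratio of 5.05 (1.39 to 41.8) without injury, against 2 UMIs, and 4.74 (2.14 to 13.1) after it. At 8000 UMIs or more the ratio of injured over uninjured was 0.795 (0.650 to 0.970), the same direction as over all barcodes. In oligodendrocytes without any macrophage or microglia UMI it was 0.906 (0.584 to 1.35), from 390 UMIs without injury and 26 after it.

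Slc11a2, which moves iron across the endosomal membrane, was sparse, with 47 UMIs in 857 uninjured and 16 UMIs in 293 injured oligodendrocytes. The levels were 11.3 CPM (8.32 to 15.1) and 6.95 CPM (3.97 to 11.3), and the interval of the ratio, 0.614 (0.325 to 1.10), included 1. OPCs held 1 and 0 UMIs and NFOs 2 and 3.

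Steap3, the reductase of the transferrin cycle, was nearly absent from the uninjured library, with 6 UMIs, and had 121 UMIs in the injured one, 120 of them in oligodendrocytes. It had 1 UMI in 857 uninjured oligodendrocytes and 120 UMIs in 36 of 293 injured oligodendrocytes, which is 0.241 CPM (0.00610 to 1.34) against 52.1 CPM (43.2 to 62.3). The ratio was 216, and with 1 UMI in the uninjured library its counting interval ran from 38.1 to 8612. OPCs held 3 UMIs without injury (17.5 CPM, 3.61 to 51.2) and 0 in 17 barcodes after it, which allows a share of up to 17.6% of barcodes. NFOs held 2 UMIs without injury (21.2 CPM, 2.57 to 76.8) and 1 after it (2.84 CPM, 0.0720 to 15.8). Both uninjured levels lay above the interval of uninjured oligodendrocytes, though from few UMIs. The 100 injured NFOs, with a share of 1%, had a median of 1258.5 UMIs, so a low level in them could not be seen at this depth.

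All 36 injured barcodes with Steap3 were Malat1-rich, and 34 of them had 8000 UMIs or more. At that depth Steap3 was found in 34 of 84 injured (40.5%) and 1 of 203 uninjured (0.493%) oligodendrocytes, with 58.5 and 0.410 CPM, whereas 0 of 46 injured barcodes of 1000 to under 3000 UMIs held it, which allows up to 6.52%. The highest barcode held 13 Steap3 UMIs of the 120. The deep injured oligodendrocytes were also compared with and without Steap3, a split made after its values were seen. Fth1 was at 19282 CPM in the 34 with and 28600.0 CPM in the 50 without, Trf at 6138 and 6509.8, Tfrc at 65.8 (50.6 to 84.2) and 99.6 (81.4 to 121), and Hmox1 at 41.8 (29.9 to 56.9) and 33.5 (23.4 to 46.6). The macrophage and microglia markers summed to 113 CPM with and 108 CPM without Steap3. The median depth was 25363 and 20475.5 UMIs.

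Hmox1, which breaks down heme and frees its iron, was also higher in injured oligodendrocytes. It had 17 UMIs in 15 of 857 uninjured (4.10 CPM, 2.39 to 6.56) and 79 UMIs in 48 of 293 injured oligodendrocytes (34.3 CPM, 27.2 to 42.8), with a ratio of 8.38 (4.91 to 15.1). At 8000 UMIs or more 4.43% of oligodendrocytes held it without injury and 52.4% after it, at 4.51 and 37.5 CPM. From 3000 to under 8000 UMIs it had 6 UMIs in 233 uninjured barcodes (5.46 CPM) and 0 in 30 injured ones, which allows up to 23.0 CPM, so that no order could be seen at this depth. NFOs held 0 and 11 UMIs and OPCs 0 and 3. The 0 of 44 uninjured NFOs allows a share of up to 6.82%, and 7 of 100 injured NFOs held Hmox1.

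Macrophages and microglia also make Hmox1, and their markers were higher in the injured library, as given above. In oligodendrocytes without any UMI of these markers the ratio was 3.996 (1.15 to 11.3), from 17 and 5 UMIs, too few for the 50-UMI minimum. Steap3 had 1 and 4 UMIs there. Among injured Malat1-rich oligodendrocytes, Steap3 was at 16.4 CPM (4.48 to 42.1) in the 21 barcodes without such a UMI and at 60.1 CPM (49.6 to 72.1) in the 139 with one, with median depths of 9338 and 10014 UMIs. The shares of barcodes holding Steap3 were 19% (4 of 21) and 23% (32 of 139). Hmox1 was at 20.5 CPM (6.67 to 47.9) and 37.3 CPM (29.2 to 47.0) in the same barcodes. Of 293 injured oligodendrocytes only 45 were free of these markers, with a median of 1381 UMIs. The part of other cells' RNA in Hmox1 and Steap3 beyond these values was not tested.

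Slc40a1, the iron exporter, had 0 UMIs in every class of both libraries. Over whole libraries that allows up to 0.680 CPM without injury and 1.08 CPM after it, taking 3 UMIs as the limit, or a share of up to 0.313% of 959 and 0.732% of 410 barcodes. The limits cover counting error only, and 0 UMIs here does not show that the gene is silent. Cp, the ferroxidase that works with the exporter, was highest in OPCs, with 18 UMIs in 15 of 58 uninjured OPCs (105 CPM, 62.3 to 166) and 4 UMIs in 4 of 17 injured ones (34.01 CPM, 9.27 to 87.1). NFOs held 3 and 4 Cp UMIs, at 31.9 CPM (6.57 to 93.1) and 11.4 CPM (3.10 to 29.1), and these intervals overlapped those of OPCs. Oligodendrocytes held 10 and 5 Cp UMIs, at 2.41 and 2.172 CPM, which was below the OPC interval in both libraries. Ireb2 showed no order of types. It stood at 46.7 and 51.0 CPM in OPCs, 31.9 and 42.6 CPM in NFOs and 41.2 (35.3 to 47.9) and 33.4 (26.4 to 41.8) CPM in oligodendrocytes, with a ratio in oligodendrocytes of 0.812 (0.612 to 1.07).

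Between types, oligodendrocytes were at least 2-fold higher than NFOs for 3 of 5 genes compared in the uninjured library (Fth1, Trf and Tfrc). In the injured library they were higher for 4 of 7 (the same 3 and Steap3), and they were lower for 0 in both. The Steap3 ratio was 18.3 (3.23 to 730), with 1 UMI in NFOs, and the injured Malat1-poor oligodendrocytes held 0 Steap3 UMIs. The shares over all genes were 24% higher and 17.7% lower without injury and 19.4% and 13.5% after it. NFOs and oligodendrocytes also differed in Malat1 share, as given above. Uninjured OPCs were at least 2-fold lower than the other types together for 3 of 6 genes (Fth1, Trf and Tfrc), against 19.6% of all genes, and higher for 0, against 18.8%. For the 17 injured OPCs values only are given.

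Over the 8 classes of type, Malat1 and library, the genes whose log2(CPM + 1) followed Fth1 most closely were Rida (Pearson r of 0.989), Pdlim2 (0.974) and Synm (0.967). Trf was followed by Aplp1 (0.991), Myo6 (0.986) and Secisbp2l (0.986), and Steap3 by Bmyc (0.890), Extl2 (0.882) and Mfge8 (0.881). The 8 points share 2 libraries and differ in depth, so these values are a description.

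Of 46 further genes of iron uptake, storage, export, regulation, heme and mitochondrial iron, 45 were among the gene names (Hjv was not), 35 had at least 1 UMI and 10 had none. In oligodendrocytes 22 of them could be compared, 1 was at least 2-fold higher after injury, 0 were lower and 21 were neither, where 5.98% of all genes were higher and 4.06% lower. The 1 was Slc39a14, a metal importer that also carries iron not bound to transferrin, at 18.1 CPM in the uninjured and 46.5 CPM in the injured library, a ratio of 2.57 (1.90 to 3.50). It was 4.87 (2.99 to 8.28) at 8000 UMIs or more. In Malat1-rich oligodendrocytes Slc25a37, the mitochondrial iron importer mitoferrin, was higher too, at 2.08 (1.21 to 3.59). In NFOs 5 could be compared, 0 were higher (13.3% of all genes were) and 1 was at least 2-fold lower (4.01% were), the endocytic receptor Lrp1, at 0.370 (0.241 to 0.574). Ncoa4, which carries ferritin to lysosomes, was at 57.6 and 67.8 CPM in oligodendrocytes, and Aco1, which encodes the other iron regulatory protein, at 28.7 and 27.8 CPM, with both ratios within 2-fold.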

How the data were processed

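Single-cell libraries were made with the Chromium system from pooled optic nerves, 1 per condition. The submitters' processing notes name Cell Ranger 1.3, bcl2fastq 2.17.1.14, Seurat 4.0.3 and mm10. The deposited values are natural log values, which the authors made as ln(1 + 10000 × UMI / total UMIs of the barcode), together with a type and a condition per barcode. They hold the oligodendrocyte lineage only, as the authors selected it. Whole UMIs were recovered from these values in 100% of barcodes (tolerance 0.001). Total depth was 4414834 UMIs without injury and 2771797 after it. No columns of unassigned samples were found (0), and no doublet caller was run. Gene positions and hairpins came from GENCODE vM21 (30438 of 31053 names matched).

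UMIs were summed per type and library. Levels are CPM with exact Poisson 95% intervals, shares have exact Clopper-Pearson intervals and ratios have exact conditional binomial intervals. A gene counted as higher or lower means at least 2-fold with at least 50 UMIs in both libraries together. UMIs remove PCR copies, yet intervals and limits cover counting error only, and with 1 library per condition no p-value is given. Malat1 under 0.5% split the oligodendrocytes. In types with under 20 barcodes in a library, values only are given. The 10 genes, the wider iron list, the marker lists and the splits were chosen with earlier results of these data known. Named were all 10 genes, the wider list's genes past 2-fold in NFOs or oligodendrocytes, and the 3 genes most like Fth1, Trf and Steap3 over 8 classes among those with at least 200 UMIs. Ncoa4, Aco1 and Ftl1-ps1 were named for their roles after their values were seen. Results were recomputed under 10 other settings of filters, minimum counts, scaling, depth and other cells, and under 1 more chosen after seeing the data (barcodes with no macrophage or microglia UMI).

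The scripts were tested on simulated data. With 200 genes changed 4-fold, the 95% intervals covered the true ratio in 96.4% of 1695 NFO genes and in 95.6% of 8591 oligodendrocyte genes, and UMIs were recovered in 100% of 100 simulated barcodes. The simulated sums for the ratios held counting error only, with no spread between barcodes or libraries. Their coverage therefore checks the calculation and does not show how the intervals cover such spread. Python 3.11.15, numpy 2.4.6, scipy 1.17.1, pandas 2.3.3 and matplotlib 3.10.9 were used.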

Additional observations from a re-analysis of the deposited data

Results flagged for a closer look

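Fth1 differed in opposite directions between the libraries in 2 types, with a ratio of injured over uninjured of 0.579 (0.517 to 0.650) in NFOs and 1.20 (1.19 to 1.21) in oligodendrocytes. With 1 library per condition the difference between the types was not tested, and in oligodendrocytes of 3000 to under 8000 UMIs the Fth1 ratio was 0.665, below 1 as in NFOs.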

How the results depend on the processing

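Of 185 values recomputed under alternatives, 114 stayed within their counting interval or within 1.5 times the count, 69 moved and 2, both of Hmox1, reversed a 2-fold difference. Counted over every ratio, 8 lay on the other side of 1. Besides the 2 of Hmox1 these were Trf in NFOs with mean CPM over barcodes (0.915) and without macrophage UMIs (0.384), and, with 1000 to under 8000 UMIs, Fth1 in Malat1-rich oligodendrocytes (0.472), Slc11a2 in Malat1-rich ones (1.01) and Ireb2 in all (1.20) and in Malat1-rich ones (1.46). Hmox1 reversed to a ratio of 0 in all and in Malat1-rich oligodendrocytes when only barcodes of 1000 to under 8000 UMIs were kept (0 UMIs after injury and 6 without, too few to show an order), and the cause was not tested. The Steap3 ratio could be computed in only 6 alternatives in oligodendrocytes, and was at least 54.3 in them. That lowest value came from barcodes without macrophage UMIs, with 4 UMIs after injury and 1 without, too few for a fold to be named. Uninjured oligodendrocytes held 1 Steap3 UMI in all, so these counts cannot show how stable the size of the Steap3 ratio is. Fth1 ran from 1.08 to 2.66 in oligodendrocytes, from 0.472 to 1.35 in Malat1-rich ones and from 0.427 to 0.892 in NFOs. Ftl1 ran from 1.97 to 4.04, from 1.58 to 2.72 and from 1.65 to 2.77 in the same order. Trf ran from 0.471 to 0.879 in oligodendrocytes and from 0.384 to 3.99 in NFOs, so its direction in NFOs was not settled. Counts of genes at least 2-fold higher in NFOs were 2 with no minimum, 2 with barcodes of 1000 to under 8000 UMIs and 0 without barcodes holding macrophage UMIs, and of genes lower 3 with no minimum, 1 with median-ratio scaling and 1 without macrophage UMIs. In oligodendrocytes 1 gene was higher with at least 200 UMIs, with 1000 to under 8000 UMIs per barcode and without barcodes holding 2 or more or 1 or more macrophage UMIs, and 1 was lower with mean CPM over barcodes, with 1000 to under 8000 UMIs and after thinning. In Malat1-rich oligodendrocytes 1 was higher with at least 200 UMIs, after thinning and in both settings without macrophage UMIs, 0 were higher and 2 lower with 1000 to under 8000 UMIs. Fewer genes could be compared in several of these settings. Median-ratio scaling shifted all NFO ratios by 0.22 on the log2 scale, and those of oligodendrocytes by 0.05. No paired analysis was possible because each condition has 1 library and no result comes from a test.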

Other observations

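Lcn2, which encodes an iron-siderophore carrier released in inflammation, is on the wider iron list but had too few UMIs to be compared, and was singled out after its values were seen. It had 34 UMIs in 3 of 100 injured NFOs, of which 32 were in a single barcode, and 0 in uninjured NFOs. It had 1 UMI in uninjured and 17 UMIs in 6 injured oligodendrocytes.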
